A study of Mus musculus with 3 samples.

Results

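Meg3 and 9 other imprinted genes, H19, Igf2, Dlk1, Mest, Peg3, Plagl1, Grb10, Ndn and Nnat, were followed across 3 arrays of cultured mouse mesenchymal progenitors. A probe set of the array entered when the platform annotation gave it to exactly 1 of these genes. That left 21 probe sets for 7 of the 10 genes, out of 28898 probe sets with 1 gene for 17097 genes on the whole array. In the annotation used here H19 and Nnat had no probe set, and the single Mest probe set was shared with its neighbour Copg2. The genes were chosen by their levels and differences on these same arrays, so their values are a description and none was tested.

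The cells, named PaS+ in the labels, were sorted from adult bone marrow of C56Bl/6 animals aged 8 weeks. They were kept in MesenCult complete medium in a 7-day culture at 1% oxygen and transduced overnight with lentivirus carrying an shRNA, a short hairpin RNA that silences a chosen transcript. One array held cells given the hairpin against HIF-2α, 1 held cells given the hairpin against HIF-1α, and 1 held cells given the control hairpin, all collected 4 days after transduction. HIF-1α and HIF-2α are the subunits of the hypoxia-inducible factors that oxygen destabilises. All 3 groups therefore share low oxygen and lentivirus, and no array held cells in normal oxygen. The labels do not say whether animals were pooled or how many hairpins were used per target.

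An imprinted gene is read mainly from the copy inherited from 1 parent. Many such genes act on fetal growth, and several of them are thought to be co-regulated in a network in which the zinc finger protein Plagl1 (also called Zac1) is one regulator. Paternally expressed members such as Igf2, Dlk1 and Peg3 and maternally expressed ones such as H19, Meg3 and Grb10 often stand in shared clusters. Meg3 is a long noncoding RNA that is read together with Rian and Mirg from the maternal copy of the cluster holding Dlk1. In blood stem cells, members of this network have been studied for their part in keeping cells quiescent.

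The start regions of Meg3 and Plagl1 are shown because Meg3 was lower, and Plagl1 higher, on the array with the HIF-2α hairpin. The Rian window is shown because Rian follows Meg3 in the same cluster. Each window covers 250 bases before to 50 bases after the RefSeq start on GRCm38.p6, on the plus strand, at chr12:109540746-109541045 for Meg3, chr12:109603695-109603994 for Rian and chr10:13090582-13090881 for Plagl1. Capitals mark the HIF core letters ACGTG and GCGTG on either strand and, in Meg3 alone, the cAMP response element TGACGTCA and the TATA letters TATAAA on either strand.
Meg3: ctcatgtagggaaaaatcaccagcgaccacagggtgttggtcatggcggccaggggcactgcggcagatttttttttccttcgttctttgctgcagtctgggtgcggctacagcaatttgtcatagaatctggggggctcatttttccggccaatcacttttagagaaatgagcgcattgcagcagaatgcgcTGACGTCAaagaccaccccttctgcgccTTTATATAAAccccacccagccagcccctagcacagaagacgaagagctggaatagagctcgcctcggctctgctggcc
Rian: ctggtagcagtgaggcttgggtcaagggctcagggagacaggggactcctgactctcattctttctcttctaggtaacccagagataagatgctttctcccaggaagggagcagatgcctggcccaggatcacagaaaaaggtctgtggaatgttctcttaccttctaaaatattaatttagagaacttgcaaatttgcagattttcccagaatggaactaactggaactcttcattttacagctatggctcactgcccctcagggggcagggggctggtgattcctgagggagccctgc
Plagl1: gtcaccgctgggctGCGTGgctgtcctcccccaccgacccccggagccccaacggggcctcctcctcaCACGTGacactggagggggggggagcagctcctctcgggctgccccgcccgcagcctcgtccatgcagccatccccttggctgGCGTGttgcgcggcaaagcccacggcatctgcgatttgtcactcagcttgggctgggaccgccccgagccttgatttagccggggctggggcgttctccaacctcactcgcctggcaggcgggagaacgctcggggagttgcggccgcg

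The Meg3 window held TGACGTCA once, at position -57 from the start site, and 2 overlapping matches to TATAAA, and no HIF core letters. The Peg3 window also held TGACGTCA once, at position -178. The Plagl1 window held 4 HIF core matches, of which the neighbouring pair reads both strands of a single CACGTG. The Rian window held none of these motifs. Across 32851 RefSeq windows of the same length, searched on both strands, 43.8% held ACGTG or GCGTG, 1.79% held TGACGTCA and 13.6% held TATAAA. CpG pairs, the sites where methylation marks imprinted copies, numbered 13 in Meg3, 26 in Plagl1 and 0 in Rian, against a median of 7 over all windows. HIF core letters were also found in a window of Dlk1 (2 matches), Grb10 (2), Igf2 (1), Ndn (1) and Peg3 (1), and in none of Mest or Nnat. A second Meg3 start region in the table held 1 CpG and none of the motifs. The letters GGGGCCCC, which the Plagl1 protein is known to bind, were found in 1.08% of windows, and among the 9 members with a window only in Peg3. A match is a run of letters and not a measured site.

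A value counted as above background when it reached 3.47, the highest of 23 nonspecific control probe sets on any of the arrays. Of the 21 probe sets, 10 did so on at least 1 array and 8 on all 3, which covers 6 and 5 of the genes. The other 11 ranged from 0.926 to 2.49 and carry no usable fold. Just inside the level lay a Meg3 probe set that read 4.26 on 1 array, and just outside it lay Igf2 at 2.49. Of the 21 probe sets, 5 had the same value on all 3 arrays and 8 the same value on a pair of arrays, so small differences may not have been recorded.

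The array quality and the labels were checked first. Hif1a read 332.4 with either HIF hairpin and 352.1 with the control hairpin, so it did not separate the hairpins. Epas1, which encodes HIF-2α, read 3.21, 9.44 and 5.09 with the HIF-2α, HIF-1α and control hairpins. With the first value under the background level, it was at least 1.47-fold lower with the HIF-2α hairpin than with control, and 1.85-fold higher with the HIF-1α hairpin. The arrays are therefore called the HIF-2α-labelled and HIF-1α-labelled arrays, and every direction rests on those labels. Of 12 listed mesenchymal progenitor markers, Ly6a had no probe set of its own and could not be read. The other 11 were above background on each array. Among them was Pdgfra, a marker used in such sorts, at 47.9, 51.6 and 38.2 on the HIF-2α-labelled, HIF-1α-labelled and control arrays. Of 16 haematopoietic markers 3 were above it on at least 1 array (Cd14, S100a8 and Cd68), and Ptprc (CD45) read 1.05 on every array. Of 14 endothelial markers 2 were above it, with Pecam1 and Cdh5 below it on every array. The 12 hybridisation control probe sets, which read RNAs added to the samples, were dimmer on the HIF-2α-labelled array than on the control array. Their log2 differences ran from −1.39 to −0.50 (median −1.02), while the 6 control probe sets for Gapdh and β-actin had a median difference of −0.05.

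Meg3 was lower on the HIF-2α-labelled array than on either of the others. Its brightest probe set (1452183_PM_a_at, Entrez gene 17263) read 76.8 on the HIF-2α-labelled array and 206.5 on the HIF-1α-labelled array, against 200.3 on the control array. The next (1452905_PM_at) read 72.4, 194.2 and 183.3 on the same arrays. Both put the HIF-2α-labelled array alone at the low end, with the other arrays close together. Further, 1436713_PM_s_at read 39.0, 110.3 and 97.7, and 1426758_PM_s_at read 28.6, 87.9 and 76.7. The suffix _s marks probe sets that can match more than 1 transcript.

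Across these 4 probe sets the HIF-2α-labelled array was 2.50-fold to 2.68-fold lower than control, with a mean log2 difference of −1.37 ± 0.045 (SD over 4 probe sets). Against the HIF-1α-labelled array it was 2.68-fold to 3.07-fold lower, with a mean of −1.49 ± 0.091. The HIF-1α-labelled array differed from control by 0.12 ± 0.073. These SDs describe probe sets that read the same RNA, and 2 of them were designed from the same accession, so they say nothing of the spread between cultures. The pooled SD between probe sets of a gene, over 2710 genes, was 0.36 for the HIF-2α-labelled array against control and 0.29 for the HIF-1α-labelled array against control. In such a bulk sample, fewer cells that contain Meg3 and less Meg3 RNA per cell cannot be told apart.

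The choice of scale matters for the dimmer pair of Meg3 probe sets. With 32 added to each intensity before log2, the differences of HIF-2α-labelled from control were −1.09 and −1.04 for the brighter pair but −0.87 and −0.84 for the dimmer pair, which were then under 2-fold. The differences of the bright Meg3 probe sets lay at or just beyond the low end of those of the hybridisation controls. Against control, Meg3 ran from −1.42 to −1.32, beside −1.39 to −0.50 for these controls. Against the HIF-1α-labelled array, Meg3 ran from −1.62 to −1.42, beside −1.59 to −0.64 for the controls (median −1.09). The part of these controls in the result was not tested. Among the 3579 probe sets of at least 64 on 1 array or more, the median difference from control was 0.01 on the HIF-2α-labelled array.

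A further 6 Meg3 probe sets were dim. One of them (1428765_PM_at) read 2.85, 4.26 and 2.85 on the HIF-2α-labelled, HIF-1α-labelled and control arrays, above background only on the second. The remaining 5 lay between 1.18 and 1.94 on every array. Of the 3 probe sets designed from the accession AV015833, 1 was bright and 2 were dim. Averaging all 10 probe sets gave −0.56 for the HIF-2α-labelled array against control, because the dim ones were nearly the same on all arrays.

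**Figure D1:**
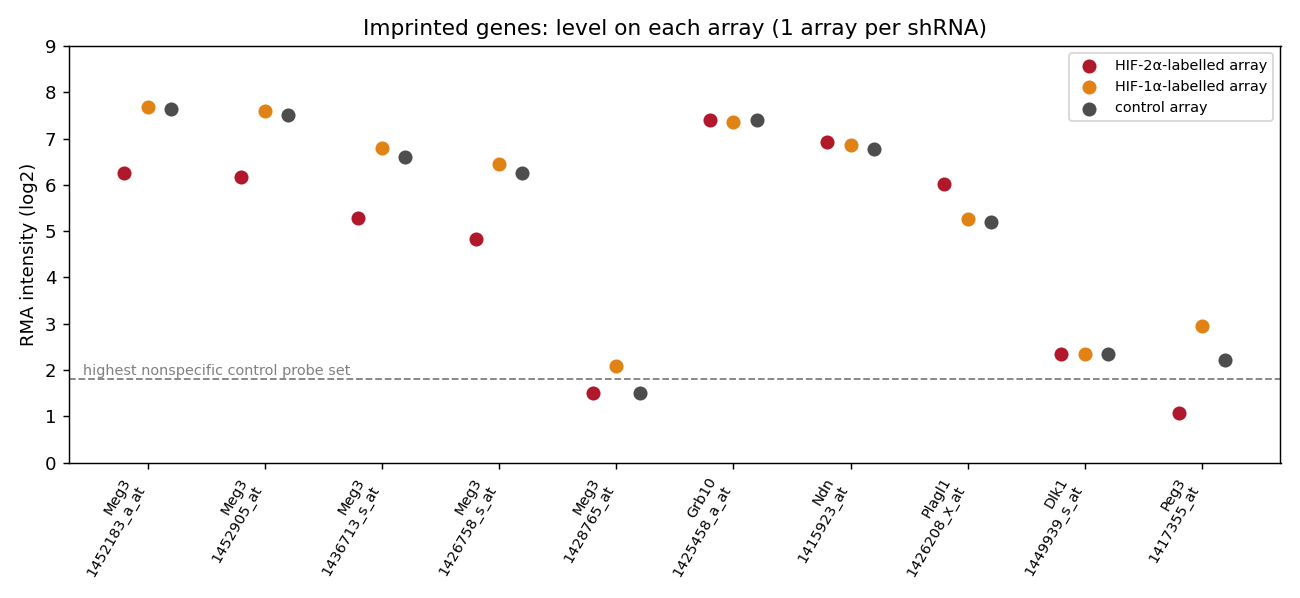
Level of each of the 10 probe sets above background on at least 1 array, as log2 RMA intensity on the vertical axis, with 1 point per array and the dashed line at the highest nonspecific control probe set. Of the Meg3 probe sets, 4 sit lower on the HIF-2α-labelled array than on the HIF-1α-labelled and control arrays, Grb10, Ndn and Dlk1 are level, Plagl1 is higher, and Peg3 lies under the dashed line on the HIF-2α-labelled array.

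Set among the 8250 genes whose brightest probe set was above background on all 3 arrays, 18 genes (0.218%) had a more negative difference of HIF-2α-labelled from control than Meg3. In the comparison of HIF-2α-labelled with HIF-1α-labelled, which leaves the control array out, 27 genes (0.327%) did. For the HIF-1α-labelled array against control, 43.2% of genes lay below Meg3, so it stood mid-range there. The 5 genes whose pair of differences from control was closest to that of Meg3 were Mmp9, C1s1, Col1a1, Aoc3 and Cp, at Euclidean distances of 0.0316, 0.0792, 0.10, 0.148 and 0.185 in log2 units over the 3 arrays. They encode a gelatinase, a complement protease, a collagen chain, an amine oxidase and ceruloplasmin. Mmp9, the closest, read 6.72, 17.6 and 17.5 on the HIF-2α-labelled, HIF-1α-labelled and control arrays.

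Markers of the progenitors and of other cell types also differed on the same array. Cxcl12, a chemokine and 1 of the 11 progenitor markers, read 72.3, 177.9 and 249.96 on the HIF-2α-labelled, HIF-1α-labelled and control arrays, 3.46-fold lower on the first than on control. Thy1, a surface marker, read 6.72, 12.4 and 13.1, or 1.94-fold lower, and the summed progenitor markers were 1689, 2000 and 1888. By each gene's brightest probe set, 4 of the 11 were above control on the HIF-2α-labelled array, 5 below and 2 equal. The 4 above were Pdgfra, Lepr, Eng and Cd44, with log2 differences from 0.20 to 0.33. By that probe set 1 of the 11 was at least 2-fold lower than control on the HIF-2α-labelled array and 0 higher. Among all 8917 genes above background 0.684% were lower and 9.54% higher. Against the HIF-1α-labelled array 2 were at least 2-fold lower and 0 higher, beside 0.886% lower and 1.49% higher among all genes. A dimmer Cd44 probe set was 2.24-fold higher than control, at 141.6, 73.1 and 63.3. Of the haematopoietic markers, Cd14, a monocyte receptor, read 93.2, 87.8 and 93.4. S100a8, a granulocyte and monocyte protein, read 53.3, 41.0 and 19.8, which is 2.70-fold over control on the first of these and 2.07-fold on the second. Cd68, a macrophage protein, read 7.24, 3.02 and 1.59, at least 2.08-fold higher. That put 2 of the 3 past 2-fold higher than control on the HIF-2α-labelled array, beside 9.54% of all genes above background. On the HIF-1α-labelled array 1 of the 3, S100a8, was past it, beside 5.73% of all genes. The list summed to 168.9, 147.0 and 132.4. The rest of the 16 haematopoietic markers stayed below background on every array, among them S100a9 at 1.09, 1.09 and 1.35.

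Among mature mesenchymal lineages, the chondrocyte, adipocyte, skeletal muscle and osteoblast sums were lower on the HIF-2α-labelled array. The summed intensity of 8 chondrocyte markers was 205.6 on the HIF-2α-labelled array and 580.6 on the HIF-1α-labelled array, against 457.1 on the control array, with 3 of 8 above background. Acan, Matn1, Matn3, Col9a1 and Col10a1, which mark cartilage, stayed below background on every array. Col2a1 read 63.3, 214.8 and 194.1, and Comp, a cartilage matrix protein, read 105.1, 324.5 and 218.4 on those arrays. Sox9, the remaining marker above background, read 31.5, 35.5 and 37.3 with 1 probe set and 32.3, 32.3 and 37.8 with another. On the HIF-2α-labelled array it was 1.19-fold and 1.17-fold lower than control. For 8 adipocyte markers the sums were 410.2, 832.3 and 645.6, with 7 above background on at least 1 array. Lpl, the lipoprotein lipase of fat cells, read 53.2, 223.9 and 148.7. Of the 7, 4 were below control on the HIF-2α-labelled array by their brightest probe sets, 1 above and 2, Cebpa and Adipor2, equal. Pparg was 1.21-fold lower than control there. Cd36 was 1.34-fold lower with its brightest probe set and 1.72-fold higher with the next. In all, 1 of the 7 adipocyte markers and 2 of the 3 chondrocyte markers above background were at least 2-fold lower than control on the HIF-2α-labelled array and 0 higher, beside 0.684% lower and 9.54% higher among all 8917 genes above background. Skeletal muscle markers summed to 19.9, 45.5 and 28.5, with 2 of 10 above background and Myod1 and Pax7 below it throughout. The 2 were Acta1, at 9.19, 28.6 and 16.7, and Myh3, above background only on the HIF-1α-labelled array, at 4.85. The rest of that sum came from values under background. The 7 osteoblast markers summed to 75.4, 146.8 and 148.4, and the 2 above background went opposite ways. Col1a1 read 48.1, 126.9 and 130.4, 2.71-fold lower than control on the HIF-2α-labelled array, and Bmp2, a bone-inducing ligand, read 19.3, 12.003 and 9.95, 1.94-fold higher. Neural markers summed to 17.7, 17.8 and 16.7, with 1 of 8 above background, S100b at 7.18, 7.66 and 5.79, and the others under it. The part of these markers in the Meg3 result was not tested.

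Within the Dlk1 and Meg3 cluster, Rian was also lowest on the HIF-2α-labelled array. Rian, which carries small nucleolar RNAs, read 49.7, 106.1 and 82.8 on the HIF-2α-labelled, HIF-1α-labelled and control arrays with its brightest probe set. A second Rian probe set read 8.60, 18.7 and 10.9. Both were lower on the HIF-2α-labelled than on the HIF-1α-labelled array, by 2.13-fold and 2.17-fold. Against control, the HIF-2α-labelled array was 1.66-fold and 1.26-fold lower, both under 2-fold. On the HIF-1α-labelled array Rian was 1.28-fold and 1.72-fold higher than control, where the bright Meg3 probe sets differed from control by 0.04 to 0.20 on the log2 scale.

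Mirg, a host of microRNAs further along the cluster, read 3.38, 6.30 and 2.81 on the HIF-2α-labelled, HIF-1α-labelled and control arrays. It was above background only on the HIF-1α-labelled array and was there at least 1.81-fold higher than either of the other arrays. The protein-coding gene on the other side of Meg3, Dlk1 (Entrez gene 13386), encodes a membrane protein that holds back fat-cell differentiation. It read 5.05 on all 3 arrays, to the last deposited digit, and so showed no difference to set beside that of Meg3. Rtl1 and Dio3 had no probe set of their own in the annotation used here.

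The 8 annotated genes with a probe set on each side of Meg3 give the local setting. Of these 16 genes, 9 were above background on at least 1 array. Between the HIF-2α-labelled and HIF-1α-labelled arrays 1 of them, Rian, was at least 2-fold lower and none was higher, beside 0.886% lower and 1.49% higher among all 8917 genes above background. Against control, 0 differed 2-fold on the HIF-2α-labelled array, where 9.54% of all genes were higher and 0.684% lower. Yy1, a transcription factor, differed from control by 0.33, Ppp2r5c, a phosphatase subunit, by 0.22 and Wars, a tRNA synthetase, by 0.69 on that array. Dync1h1, the dynein heavy chain, was equal on all arrays.

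**Figure D2:**
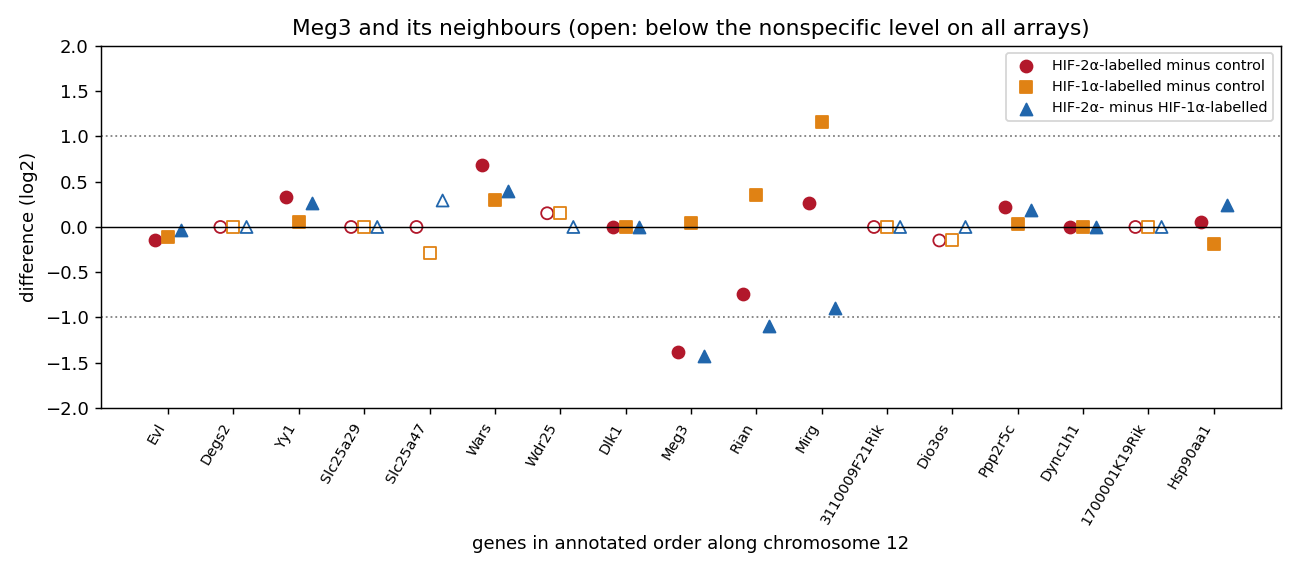
Log2 difference between arrays (vertical axis) for Meg3 and the 8 genes with a probe set on each side of it, in annotated order along chromosome 12, by each gene's brightest probe set. Open symbols mark genes below background on every array. Meg3 (−1.38) and Rian (−0.74) are the 2 lowest points for HIF-2α-labelled minus control.

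Igf2 and Mest, which promote fetal growth, gave no usable signal. Igf2 (Entrez gene 16002), the fetal growth factor of the cluster it shares with H19, had 2 probe sets. The first read 0.926 on all 3 arrays, and the second read 2.21, 2.49 and 2.17 on the HIF-2α-labelled, HIF-1α-labelled and control arrays. All lay under 3.47, although 2.49 is above 2.29, the highest nonspecific value of the HIF-1α-labelled array itself. Mest, an enzyme-like protein of mesoderm, could be read only through the probe set shared with Copg2, which gave 1.87 on every array. No Mest or Igf2 difference can be given from these values.

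Peg3 (Entrez gene 18616), a zinc finger protein that marks several adult progenitor populations, was dim. Its first probe set read 2.10, 7.78 and 4.64 on the HIF-2α-labelled, HIF-1α-labelled and control arrays. The order was thus lowest on the HIF-2α-labelled array and highest on the HIF-1α-labelled array. Because 2.10 lies under background, the HIF-2α-labelled array is given as at least 1.34-fold lower than control and at least 2.24-fold lower than the HIF-1α-labelled array. The HIF-1α-labelled array was 1.68-fold higher than control. A second Peg3 probe set read 0.984 on all arrays. With 32 added before log2 the Peg3 difference from control was −0.10 on the HIF-2α-labelled array and 0.12 on the HIF-1α-labelled array.

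Plagl1 (Entrez gene 22634), the zinc finger regulator of the network, had the largest positive difference among the members on the HIF-2α-labelled array. It read 65.2 there and 38.3 on the HIF-1α-labelled array, against 36.4 on the control array. This is 1.79-fold over control and 1.70-fold over the HIF-1α-labelled array, both under 2-fold. The probe set carries the suffix _x, which marks probes that may also bind related sequences. The second Plagl1 probe set was below background, at 1.82, 1.82 and 1.96. Between the HIF arrays 1.82% of the 8250 genes had a larger difference than Plagl1, and for the HIF-2α-labelled array against control 9.19% did.

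Grb10 and Ndn were bright and nearly level. Grb10 (Entrez gene 14783), an adaptor that dampens insulin and IGF receptor signalling, read 167.9, 164.5 and 167.9 on the HIF-2α-labelled, HIF-1α-labelled and control arrays. Its 2 dim probe sets lay between 1.19 and 1.58. Ndn (Entrez gene 17984), which encodes necdin, a growth suppressor of postmitotic and quiescent cells, read 122.1, 116.0 and 110.2. Its differences from control, 0.15 on the HIF-2α-labelled array and 0.07 on the HIF-1α-labelled array, were smaller than the pooled SD between probe sets. Centring each array on its median turned them to −0.11 and −0.13.

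Counted over the 10 probe sets above background, 5 were at least 2-fold lower and 0 higher on the HIF-2α-labelled array against control, 4 of Meg3 and 1 of Peg3, the last by its deposited values since its bound is 1.34-fold. Among all 13265 such probe sets with 1 gene 0.618% were lower and 10.6% higher. Between the HIF-2α-labelled and HIF-1α-labelled arrays the same count was 5 lower and 0 higher, beside 0.776% lower and 1.45% higher in all. For the HIF-1α-labelled array against control it was 0 in either direction, beside 6.34% higher and 0.204% lower. The median over the 10 probe sets was −0.57 for HIF-2α-labelled against control, −1.0 for HIF-2α-labelled against HIF-1α-labelled and 0.08 for HIF-1α-labelled against control, beside 0.16, 0.00 and 0.12 over all 13265. Since the members were chosen knowing such values, and 4 of the 5 probe sets read 1 gene, nothing is drawn from these counts. Counting 1 probe set a gene gave 2 genes lower, Meg3 and Peg3, and raising dim values to background left the 4 Meg3 probe sets against control. Both HIF comparisons with control use the same control array.

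**Figure D3:**
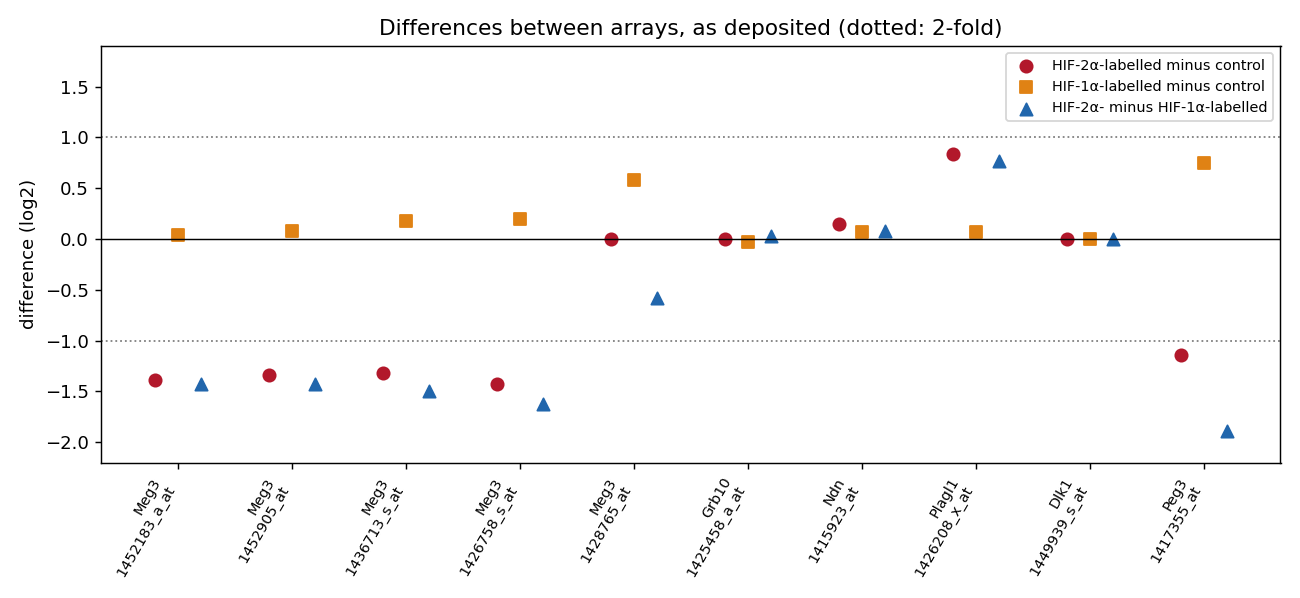
Log2 difference between arrays on the vertical axis for the 10 probe sets above background on at least 1 array, as deposited, with dotted lines at 2-fold. The 4 bright Meg3 probe sets lie between −1.42 and −1.32 for HIF-2α-labelled minus control and between 0.04 and 0.20 for HIF-1α-labelled minus control.

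Other imprinted genes lay on both sides of control. Of 43 listed, 33 had a probe set of their own and 16 were above background on at least 1 array. Their median difference from control was 0.08 on the HIF-2α-labelled array and 0.16 on the HIF-1α-labelled array, beside 0.15 and 0.11 over all 8917 genes. On the HIF-2α-labelled array 9 of the 16 were above control, 6 below and 1 equal. Of them, 1 was at least 2-fold higher than control there and 0 lower, beside 9.54% higher and 0.684% lower among all genes. On the HIF-1α-labelled array 2 were higher and 0 lower, beside 5.73% higher and 0.191% lower among all genes.

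The gene higher on both was Tnfrsf23, a decoy receptor for the death ligand TRAIL, which read 19.3, 8.18 and 2.16 on the HIF-2α-labelled, HIF-1α-labelled and control arrays. It was at least 5.55-fold higher than control on the first and at least 2.36-fold on the second. The other was Mirg, past 2-fold by its deposited values but with a bound of 1.81-fold. Cdkn1c, an imprinted inhibitor of the cell cycle and a network member in other tissues, read 3.29 on every array, just under background. Blcap, whose intron holds Nnat, read 60.4, 53.8 and 51.4. Snrpn, a splicing protein gene of the cluster that also holds Ndn, was picked out after its values were seen. It read 22.2, 43.0 and 33.7 with 1 probe set and 26.9, 44.4 and 33.7 with another, lowest on the HIF-2α-labelled array both times, while the remaining probe set was below background.

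Partners of IGF signalling gave 9 genes above background out of 13 with a probe set and 18 listed. Their median difference from control was −0.05 on the HIF-2α-labelled array and 0.10 on the HIF-1α-labelled array. Igfbp3, a secreted IGF-binding protein, read 49.4 on the HIF-2α-labelled array and 102.7 on the HIF-1α-labelled array, against 101.3 on the control array. It was 2.05-fold lower than control and 2.08-fold lower than the HIF-1α-labelled array, and was the single gene of the 9 past 2-fold in either comparison. Among all genes, 0.684% were lower and 9.54% higher than control, and 0.886% lower and 1.49% higher than on the HIF-1α-labelled array. Hmga2, a chromatin protein of growing mesenchyme chosen after its values were seen, read 278.3, 231.2 and 221.6 with its brightest probe set. Igf1r, the receptor for both IGFs and likewise chosen afterwards, read 69.4, 83.7 and 95.2 with its brightest probe set and 65.4, 84.7 and 89.6 with the next. Another Igf1r probe set went the other way, at 28.5, 28.1 and 24.4. Igf2r, the imprinted receptor that clears Igf2, had no probe set of its own.

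**Figure D4:**
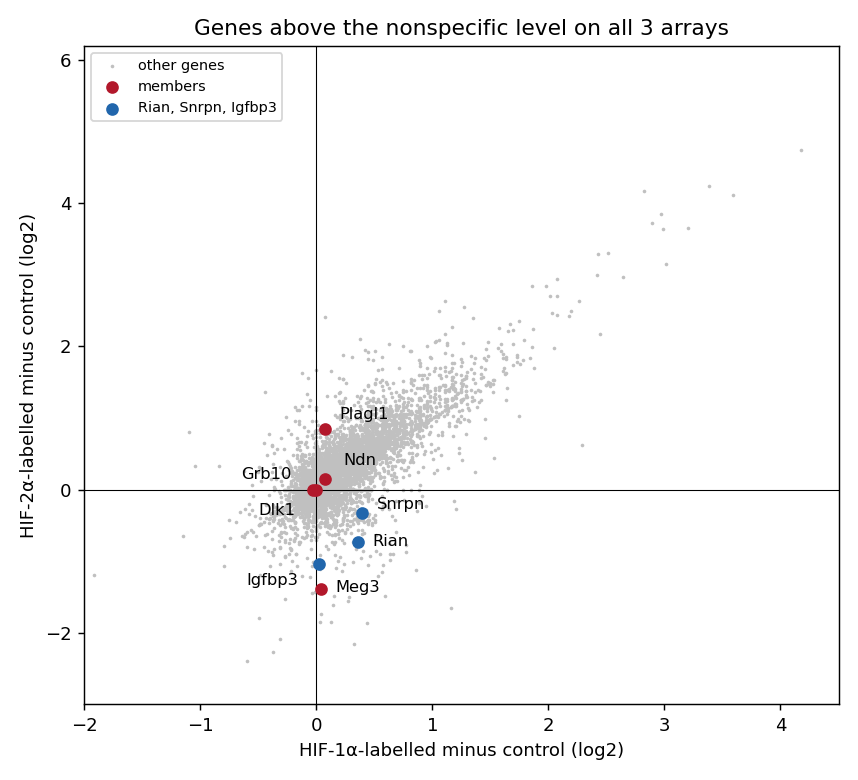
Log2 difference from control for the 8250 genes above background on all 3 arrays, with the HIF-1α-labelled array on the horizontal axis and the HIF-2α-labelled array on the vertical axis. Members are red and Rian, Snrpn and Igfbp3 blue. Meg3 lies at 0.04 and −1.38, below nearly all genes (18 are more negative on the vertical axis), and Plagl1 at 0.07 and 0.84.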

How the data were processed

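Biotin-labelled cRNA from 1 µg of total RNA was hybridised to 3 one-colour Affymetrix arrays, 1 per hairpin, per the labels' protocols. The authors deposited 1 table of RMA intensity values, a method named in the submitters' processing notes with no version or settings. The deposited intensity values are linear, from 0.63 to 1747, and log2 was taken with no further scaling. Annotation came from the platform table, with 28689 of the 28898 probe sets with 1 gene matched by Entrez identifier to RefSeq names (GRCm38.p6). The 551 probe sets with several genes, 15588 not listed and 104 controls were left out. With 1 array per group no test was possible, and a difference of 2-fold was counted. A fold with 1 side under 3.47 is a bound, computed against 3.47. The named genes are all members, the 5 genes nearest to Meg3, and, of the lists of other imprinted genes and IGF signalling partners, genes past 2-fold and fixed partners of the members. Snrpn, Hmga2, Igf1r and the cell type markers given by name were picked after their values were seen. Members and lists were chosen with earlier results of these data known, and the genes beside Meg3 were added after the values were seen. The code of the counting rule was run on copies of the control array with known changes and no noise. Such a run checks the code and says nothing of how the rule behaves on these arrays. Promoter windows came from RefSeq. Python 3.11.15, pandas 2.3.3 and, for cyclic loess, limma 3.58.1 in R 4.3.3 were used. Precision is limited by the number of arrays.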

Additional observations from a re-analysis of the deposited data

How the results depend on the processing

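No paired analysis was possible because each group holds 1 array, and for the same reason no array could be left out. The count of member probe sets past 2-fold stayed at 5 for the HIF-2α-labelled array against control, and at 5 against the HIF-1α-labelled array, under cyclic loess, median centring, no minimum and, in an alternative chosen after seeing the data, each array's own nonspecific level. Minimums of 16 or 64 gave 4 in both comparisons. With 32 added before log2 the counts were 2 against control and 3 against the HIF-1α-labelled array, because 32 outweighs dim values. With 1 probe set a gene they were 2 and 2, because fewer probe sets are counted. For the HIF-1α-labelled array against control the count was 0 under every alternative run except a threshold of 1.5-fold, which gave 1, the dim Peg3 probe set. Median centring removed shifts of 0.26 and 0.20 on the HIF-2α-labelled and HIF-1α-labelled arrays against control, and Meg3 then differed by −1.65 and −0.16. Of 72 recomputed differences of single members, 60 moved by no more than the pooled SD between probe sets and 12 by more, and no difference past 2-fold turned its sign. Over all probe sets above background, the HIF-2α-labelled array had 1407 higher and 82 lower than control, against 944 and 122 after cyclic loess, 850 and 156 after median centring, and 42 and 11 with 32 added. For the HIF-1α-labelled array against control they were 841 and 27, against 543 and 37, 486 and 40, and 17 and 0 in that order. Between the HIF-2α-labelled and HIF-1α-labelled arrays they were 193 and 103, with 5 and 18 when 32 was added. With no minimum they were 1522 and 177 for the HIF-2α-labelled array against control, and 884 and 120 for the HIF-1α-labelled array against control. Values under 3.47 and ties between arrays limit what can be told apart.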
